A study of Mus musculus with 2 samples.

Results

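The genes described here are the hypoxia-inducible factor (HIF) subunits and the enzymes and ligase that tie their stability and activity to oxygen. They were chosen by gene symbol: every probe set of the deposited value table whose platform annotation gave 1 of 10 listed symbols (Epas1, Hif1a, Hif3a, Arnt, Arnt2, Vhl, Egln1, Egln2, Egln3 and Hif1an). This gave 30 probe sets of 45101, and 10 genes of the 18193 that carried a symbol of their own. The samples were colon mucosal scrapings from Hif-2αΔIE and Hif-2αF/F mice, both on the C57BL/6 background, aged 6 to 8 weeks by the labels (7 weeks in the design text) and given 3% dextran sulfate sodium (DSS, which injures the colonic lining) for 3 days. In F/F mice the alleles of Epas1, which encodes HIF-2α, can be removed by Cre recombinase. ΔIE is read here, from knowledge of this model, as deletion of that gene in the intestinal epithelium, and the sources used here do not state the promoter that drives Cre. All mice received DSS, so no untreated level is available. The design text counts 5 ΔIE and 6 F/F mice, but each genotype is represented by 1 array, and the sources used here do not state whether RNA was pooled. With no replicates, the genotypes could not be tested against each other, and each difference compares these 2 arrays only. Values are on the log2 scale of robust multi-array averaging (RMA), a difference is ΔIE minus F/F on that scale, and a fold is 2 raised to its size.

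HIF is a transcription factor made of an oxygen-labile α subunit and a stable β subunit. When oxygen is present, the prolyl hydroxylases encoded by Egln1, Egln2 and Egln3 (PHD2, PHD1 and PHD3) modify the α subunit. The ubiquitin ligase subunit encoded by Vhl then recognises it, and it is degraded. The asparaginyl hydroxylase encoded by Hif1an (FIH) acts separately and keeps the α subunit from binding its coactivators. HIF-α is controlled chiefly as protein, and these arrays measured mRNA. In the intestine HIF-1α is known for epithelial barrier and metabolic genes and HIF-2α for iron uptake and inflammatory genes. Egln1 and Egln3 are themselves known HIF target genes.

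Egln3 and Hif1a were lower on the ΔIE array, and Arnt2 was higher by 1 of its 3 probe sets. The remaining genes differed little. Among the measured probe sets of the group, only those of Egln3 lay outside the central range of differences at like brightness, described below. Those of Hif1a and Arnt2 lay inside it. Egln3 was 3.33-fold lower and Hif1a 1.96-fold lower by their brightest probe sets. Epas1, the gene named as deleted, differed by 1.09-fold, lower on the ΔIE array, when read by the brighter of its probe sets. The 8 genes other than Hif1a and Egln3 had 24 probe sets, and 23 of these differed by less than 0.4 in either direction. The exception was the Arnt2 probe set, which was 0.66 higher on the ΔIE array. Of all 30 probe sets, 4 were at least 2-fold lower and 0 at least 2-fold higher. Across all 34945 named probe sets, 2.76% were at least 2-fold lower and 0.618% at least 2-fold higher. The 4 probe sets came from only 2 genes, and probe sets of a gene are not independent measurements. Counted by gene, 1 of 10 was at least 2-fold lower, beside 5.30% of the 11899 genes kept. Hif1a passed 2-fold too under 2 alternatives, at -1.15 by its brightest probe set without IDs ending in _s_at, _x_at or _a_at and at -1.01 after a lowess correction, which made it 2 of 10 genes, beside 5.30% and 5.67% of all genes. At 1.5-fold 2 of the 10 genes were lower and 1 higher, beside 10.6% and 4.37% of genes kept, and at 3-fold 1 was lower and 0 higher, beside 1.49% and 0.168%. The 1 higher at 1.5-fold was Arnt2. It reached the level filter given below on the ΔIE array alone, so its being higher was fixed by the filter. The median difference was -0.14 over the 10 genes and 0.02 over all genes kept. Several marker medians, described last, were lower on the same arrays: neutrophil (-1.53), macrophage (-1.19), B cell (-1.81), squamous (-1.21), posterior Hox (-1.49), fibroblast (-0.85) and endothelium (-0.51). The part of these cell types and of position along the gut in the Hif1a and Egln3 values was not tested.

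**Figure D1:**
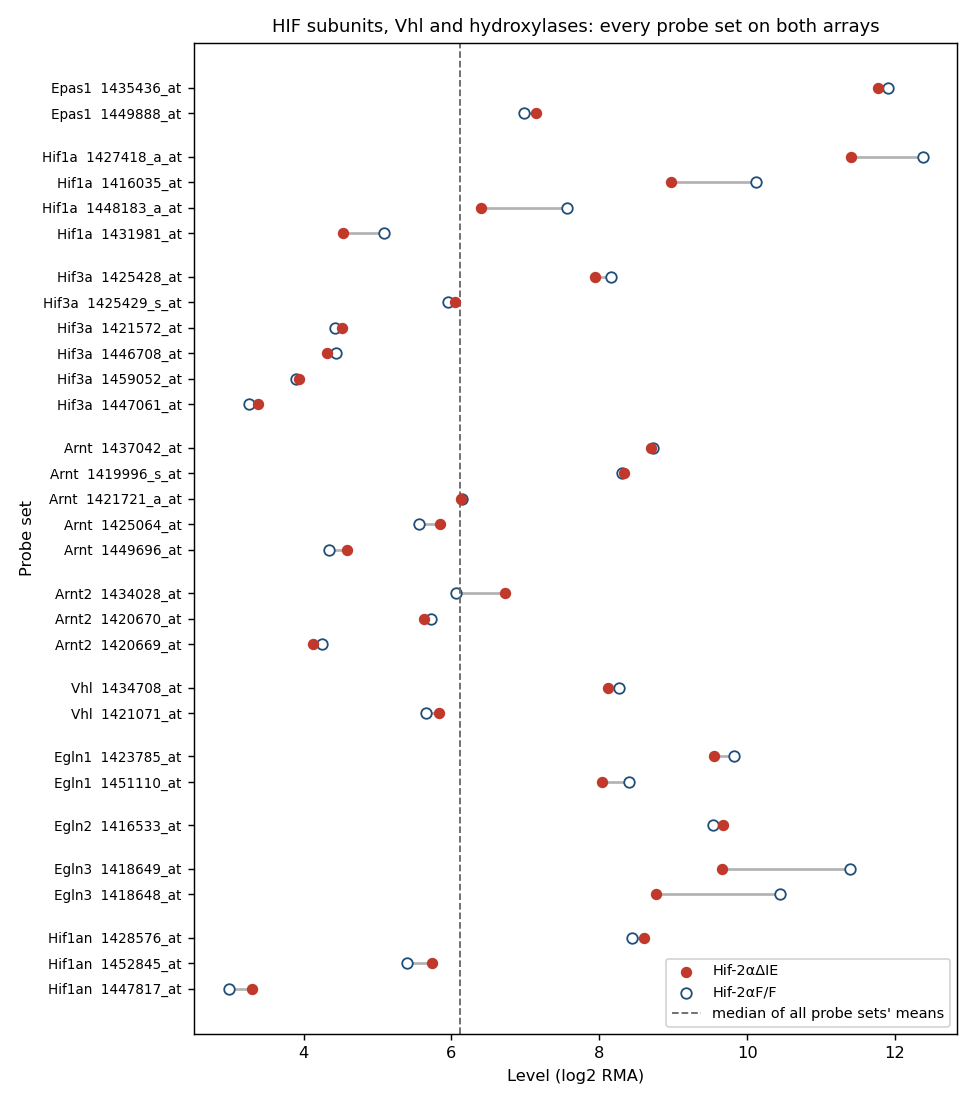
Level (log2 RMA) of each of the 30 probe sets on the Hif-2αΔIE array (filled) and the Hif-2αF/F array (open), grouped by gene. The dashed line is the median of all probe sets' means, 6.11. The 4 Hif1a and 2 Egln3 probe sets lie apart with ΔIE to the left, and the pairs of points of Epas1, Arnt and Vhl lie close together.

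Because RMA gives no detection call, a level of 6.11 (the median over the table of each probe set's mean) served as a filter, and a probe set was taken as measured where at least 1 array reached it. By this filter 17 of the 30 probe sets were measured, 16 on both arrays and 1, of Arnt2, on the ΔIE array alone. All 4 probe sets at least 2-fold lower were among the 17, beside 4.35% lower and 0.983% higher of the 20253 measured named probe sets. At 1.5-fold, 5 of the 17 were lower and 1 higher, beside 9.02% lower and 4.03% higher of all measured ones. The 1 higher was that of Arnt2, whose direction the filter fixed. At 3-fold, 2 were lower and 0 higher, beside 1.16% and 0.153%. The other 13 probe sets lay below the filter on both arrays. Their differences ran both ways, with 4 below 0 and 9 above, and no fold is drawn from them. Each of the 10 genes kept at least 1 measured probe set. The annotation gave a transcript record for 28 of the 30 probe sets. Among these, 6 genes had a pair from the same record, 12 probe sets in all, so agreement within such a pair is a repeat on a shared sequence.

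The labels were checked against Cre, the recombinase that makes the deletion. The 4 control probe sets for Cre read 7.86 to 10.01 on the ΔIE array and 2.92 to 4.22 on the F/F array. The 14 control probe sets for the bacterial transcripts bioB, bioC and bioD differed by -0.10 to 0.38 between the arrays. Their median level was 3.25 on the ΔIE array and 3.24 on the F/F array, below the level filter. Small differences of such dim probe sets say little. Markers of the labelled tissue were high on both arrays: Epcam, an adhesion protein of epithelial cells, read 13.89 on the ΔIE array and 13.80 on the F/F array. Vil1, which encodes the brush border protein villin, read 12.45 on the ΔIE array and 12.19 on the F/F array. Some squamous and smooth muscle markers were bright as well. The squamous keratin gene Krt6a read 12.04 on the ΔIE array and 13.25 on the F/F array. The smooth muscle gene Acta2 read 12.82 on the ΔIE array and 12.90 on the F/F array.

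Promoter sequence is shown for Hif1a and Egln3, the genes that were lower, and for Egln1, the paralog of Egln3 that differed little. The sequences are RefSeq windows of build GRCm38.p6, the 250 bases before each gene's start, read 5′ to 3′ on the gene's strand. Capitals mark ACGTG or GCGTG, the core letters of a hypoxia response element, on either strand. Matches that overlap run together, as in the Hif1a window, where the motif on one strand overlaps its copy on the other.
Hif1a, chr12:73907617-73907866, plus strand: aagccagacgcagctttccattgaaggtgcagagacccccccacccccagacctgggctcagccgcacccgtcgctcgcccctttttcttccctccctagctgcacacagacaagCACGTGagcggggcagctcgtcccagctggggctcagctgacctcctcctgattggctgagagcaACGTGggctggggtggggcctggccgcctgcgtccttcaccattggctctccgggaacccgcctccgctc
Egln3, chr12:54203875-54204124, minus strand: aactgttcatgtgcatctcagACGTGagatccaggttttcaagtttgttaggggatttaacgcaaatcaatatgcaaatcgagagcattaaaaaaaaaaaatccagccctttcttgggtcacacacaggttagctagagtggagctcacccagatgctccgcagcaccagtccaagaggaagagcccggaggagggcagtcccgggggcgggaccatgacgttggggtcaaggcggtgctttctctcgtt
Egln1, chr8:124949255-124949504, minus strand: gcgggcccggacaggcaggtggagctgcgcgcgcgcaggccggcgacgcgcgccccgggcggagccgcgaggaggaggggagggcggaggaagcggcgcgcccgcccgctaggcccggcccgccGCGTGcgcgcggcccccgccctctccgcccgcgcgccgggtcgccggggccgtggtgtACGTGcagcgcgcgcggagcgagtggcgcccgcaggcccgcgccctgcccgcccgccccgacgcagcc
The Hif1a window held ACGTG at 134 and 70 bases before the start, counted to the first letter of the motif. The Egln3 window held 1 match, at 229 bases. The Egln1 window held GCGTG at 126 bases and ACGTG at 68 bases. Windows were found for 9 of the 10 genes, and those of 6 genes held at least 1 match (Hif1a, Hif3a, Arnt, Egln1, Egln2 and Egln3). Among 32851 RefSeq windows of the same length, 38.6% held a match. A match describes the letters in this window, and nothing about binding is read from it.

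Among the α subunit genes, Hif1a differed more between the arrays than Epas1 and Hif3a. Epas1 had 2 probe sets, both measured on both arrays. The brighter, 1435436_at, read 11.77 on the ΔIE array and 11.90 on the F/F array, a difference of -0.13. The dimmer, 1449888_at, read 7.15 on the ΔIE array and 6.98 on the F/F array, a difference of 0.16. The signs were opposite, and the difference of the brighter one stood at the 27.7th percentile of all 20253 measured named probe sets. The gene named as deleted therefore did not read lower on the ΔIE array by both probe sets. The place of these probe sets in the gene was not mapped, and probes that lie outside the deleted part do not check the deletion.

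Hif1a, the gene of HIF-1α, had 4 probe sets, all lower on the ΔIE array. The brightest, 1427418_a_at, read 11.41 on the ΔIE array and 12.38 on the F/F array, so that its linear level in ΔIE was 51.1% of that in F/F. The next, 1416035_at, read 8.96 on the ΔIE array and 10.12 on the F/F array (2.23-fold lower), and 1448183_a_at read 6.39 on the ΔIE array and 7.56 on the F/F array (2.25-fold lower). These 3 measured probe sets gave differences within 0.20 of one another, from -1.17 to -0.97. The annotation gave no transcript record for 1416035_at and 1448183_a_at, so whether they share sequence is not known. The fourth, 1431981_at, was below the filter on both arrays, at 4.53 in ΔIE and 5.09 in F/F. The 3 measured differences stood between the 3.19th and the 4.59th percentile of all measured named probe sets. At like brightness, within 0.5 of the mean level of 1427418_a_at, the middle 95% of 695 probe sets ran from -1.26 to 0.71, so its -0.97 was inside that range. The other 2 were also inside the ranges at their own brightness, which began at -1.19 for 1416035_at and -1.28 for 1448183_a_at. By their brightest probe sets, the difference of Hif1a minus that of Epas1 was -0.84 on the log2 scale.

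Hif3a, whose products include inhibitory forms of the α subunit, had 6 probe sets, and 1 of them was measured. It read 7.95 on the ΔIE array and 8.15 on the F/F array, a difference of -0.21. The remaining 5 lay between 3.38 and 6.04 on the ΔIE array and between 3.26 and 5.95 on the F/F array, below the filter. All 6 differed by less than 0.4, and neither direction prevailed, with 2 below 0 and 4 above.

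The β subunits pair with the α subunits and are not regulated by the hydroxylases. Arnt (HIF-1β) had 5 probe sets, 3 of them measured. The measured ones read 8.70, 8.34 and 6.13 on the ΔIE array and 8.73, 8.31 and 6.14 on the F/F array, and their differences lay between -0.03 and 0.03. Arnt was thus the member whose measured probe sets differed least. Its 2 dimmer probe sets, below the filter, differed by 0.25 and 0.28.

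Arnt2, a paralog of Arnt known chiefly from neural tissue, gave the largest positive difference of the group. Its brightest probe set, 1434028_at, read 6.72 on the ΔIE array and 6.06 on the F/F array, a difference of 0.66, at the 96.9th percentile of measured named probe sets. It passed the filter through the ΔIE array alone, so that its being higher was fixed by the filter, and its percentile carries the same limit. The other 2 probe sets, both below the filter, read 5.63 and 4.12 on the ΔIE array and 5.72 and 4.24 on the F/F array, slightly lower in ΔIE. Averaged over its 3 probe sets, Arnt2 differed by 0.15 in place of 0.66, so its difference rests on 1 probe set.

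Vhl, whose product recognises the hydroxylated α subunit, had 2 probe sets. The measured one read 8.11 on the ΔIE array and 8.26 on the F/F array, a difference of -0.15, and the one below the filter read 5.83 on the ΔIE array and 5.66 on the F/F array. The signs were opposite and both differences were small.

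Of the 3 prolyl hydroxylase genes, Egln3 differed most between the arrays. Egln3 (PHD3) read 9.66 on the ΔIE array and 11.39 on the F/F array by 1418649_at, and 8.77 on the ΔIE array and 10.44 on the F/F array by 1418648_at. The differences were -1.73 and -1.67, or levels in ΔIE of 30.1% and 31.4% of those in F/F. Both probe sets come from the same transcript record. They stood at the 0.647th and the 0.844th percentile of all measured named probe sets, and by gene Egln3 was the 104th lowest of 11899. Among 2002 probe sets within 0.5 of the mean level of 1418649_at, the middle 95% of differences ran from -0.98 to 0.66, and Egln3 lay below it.

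Egln1 (PHD2), regarded as the main hydroxylase of HIF-1α in normal oxygen, was slightly lower by both of its probe sets. These probe sets come from the same transcript record, so their agreement is a repeat on a shared sequence. They read 9.56 and 8.03 on the ΔIE array and 9.83 and 8.41 on the F/F array, with differences of -0.27 and -0.38. These lay at the 17.5th and the 13.5th percentile, within the bulk of all probe sets. Egln2 (PHD1), which had 1 probe set, read 9.68 on the ΔIE array and 9.53 on the F/F array, a difference of 0.15. By brightest probe sets, the difference of Egln3 minus that of Egln1 was -1.46, and minus that of Egln2 -1.88, on the log2 scale.

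Hif1an, the gene of FIH, had 3 probe sets, all slightly higher on the ΔIE array. The measured one read 8.60 on the ΔIE array and 8.44 on the F/F array, a difference of 0.16. The 2 below the filter differed by 0.34 and 0.30, from levels of 5.73 and 3.30 on the ΔIE array and 5.40 and 2.99 on the F/F array. The brighter of these comes from the same transcript record as the measured one.

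**Figure D2:**
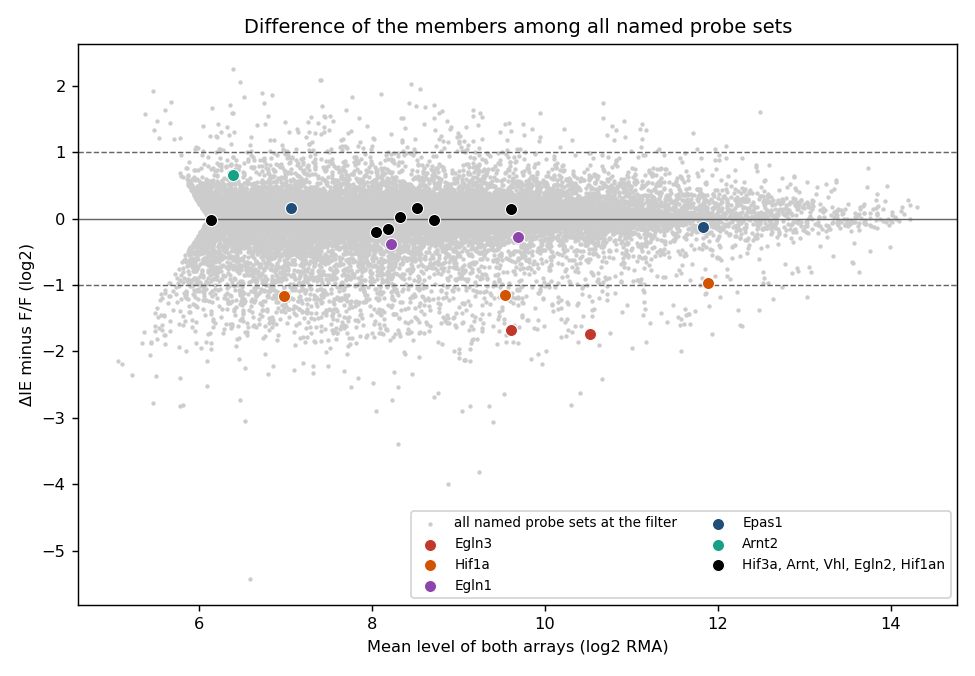
Difference, ΔIE minus F/F (log2), against the mean level of both arrays (log2 RMA) for the 17 measured probe sets of the group (coloured and black) among all 20253 measured named probe sets (grey). Dashed lines mark 2-fold. Both Egln3 probe sets and 2 of Hif1a lie below the lower line, the third of Hif1a lies at it, and the others lie in the central band apart from Arnt2 near its upper edge.

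The genes of proteins that act with Vhl or on the stability of the α subunit showed no mRNA difference of 2-fold by brightest probe set. This list held the Vhl partners elongin B and C, Cul2 and Rbx1, the Siah ligases, deubiquitinases and chaperones. Of its 13 genes 10 were matched and kept, with a median difference of 0.13, and 9 lay above 0 and 1 below. Of all genes kept, 46.5% lay below 0, 5.30% were at least 2-fold lower and 1.15% at least 2-fold higher. The brightest members were Hsp90aa1, a chaperone of HIF-α, at 11.90 on the ΔIE array and 11.70 on the F/F array, Elob at 11.58 on the ΔIE array and 11.56 on the F/F array, and Eloc at 11.33 on the ΔIE array and 11.45 on the F/F array. Coactivators and inhibitors of HIF were as close: 8 of 9 genes were kept, 4 on either side of 0, with a median of -0.02 and none at 2-fold. Cited4, above 0, passed the filter on the ΔIE array alone, so that its direction was fixed by the filter. Ep300, the coactivator whose binding FIH prevents, read 10.06 on the ΔIE array and 10.24 on the F/F array, and Crebbp, its paralog, 10.26 on the ΔIE array and 10.34 on the F/F array. Cited2, an inhibitor that competes with HIF-α for both, read 11.06 on the ΔIE array and 11.05 on the F/F array.

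Of 11 other factors of the bHLH-PAS family, to which the HIF subunits belong, 5 were kept. Their median was -0.40, with 4 below 0 and 1 above, and none was at 2-fold. Without a filter the median over the 11 was -0.12. Ahr, the dioxin receptor that also pairs with Arnt, read 9.38 on the ΔIE array and 10.12 on the F/F array (1.67-fold lower). The clock factor genes Clock and Arntl differed by -0.40 and -0.23. The wider family of 2-oxoglutarate dioxygenases, which share the oxygen-dependent chemistry of the Egln enzymes, included collagen hydroxylases, histone demethylases and Tet enzymes. Of 24 genes 20 were kept, with a median of -0.08, 11 below 0 and 8 above, and none at 2-fold. The brightest were Phyh, a peroxisomal fatty acid enzyme, which differed by 0.37, the RNA demethylase gene Alkbh5 (0.13) and the histone demethylase gene Kdm6b (0.12). All kept collagen hydroxylase genes were lower, from -0.77 for Plod2, the largest difference of the list, to -0.19 for Plod1. At 2-fold, 5.30% of all genes kept were lower and 1.15% higher, and 46.5% lay below 0. By brightest probe set, no kept member of these 4 lists reached 2-fold in either direction. Probe sets of a gene did not always match. Averaged over its probe sets, Arntl2 differed by -0.67 in place of 0.20, and Plod2 by -0.95 in place of -0.77.

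Genes known to be induced by hypoxia were lower by a small amount as a list. Of 37 genes 34 were matched and kept, of which 25 lay below 0 and 9 above, beside 46.5% of all genes kept below 0. Of the 25, Hmox1 passed the filter on the F/F array alone. The list median was -0.28, beside 0.02 over all genes kept. At least 2-fold lower were 6, beside 5.30% of all genes kept, and 0 were 2-fold higher. Besides Egln3 these were Slc2a3, a glucose transporter, at 9.04 on the ΔIE array and 10.57 on the F/F array, and Lox, a collagen crosslinking enzyme, at 8.09 on the ΔIE array and 9.60 on the F/F array. The lactate exporter gene Slc16a3 read 6.12 on the ΔIE array and 7.36 on the F/F array, Pfkfb3, which drives glycolysis, 6.21 on the ΔIE array and 7.37 on the F/F array, and Ankrd37 7.13 on the ΔIE array and 8.20 on the F/F array. Averaged over their probe sets, only Egln3, Slc16a3 and Ankrd37 of the 6 remained at 2-fold, and Slc2a3 differed by -0.70, Lox by -0.93 and Pfkfb3 by -0.58. With Egln1 and Egln3 left out, the median over 32 genes was -0.27.

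Genes with a reported preference for HIF-2α had a median of -0.31 over 11 kept of 14. Beside 46.5% of all genes kept below 0, 9 of the 11 lay below and 2 above. At least 2-fold lower were 4 of them, beside 5.30% of all genes kept: Steap4, a metalloreductase (8.88 on the ΔIE array and 11.07 on the F/F array), the neutrophil chemokine gene Cxcl1 (8.29 on the ΔIE array and 9.96 on the F/F array), Arg1, the arginase of activated macrophages (11.46 on the ΔIE array and 13.06 on the F/F array), and Ankrd37, which both lists hold. Of the list members that transport or reduce iron besides Steap4, the importer gene Slc11a2 differed by -0.02, the exporter gene Slc40a1 by -0.17 and the reductase gene Cybrd1, below the filter on both arrays, by 0.38. Neutrophil (-1.53) and macrophage (-1.19) marker medians were lower on the same arrays, as were those of B cell (-1.81), squamous (-1.21) and posterior Hox (-1.49) markers. The list median depended on the processing: it came to -1.07 when genes had to reach the 75th percentile of probe sets and to -0.72 with probe sets averaged. The -1.07 is the value of Ankrd37, which reached that higher filter, 8.17, on the F/F array alone. Its being lower was therefore fixed by that filter.

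**Figure D3:**
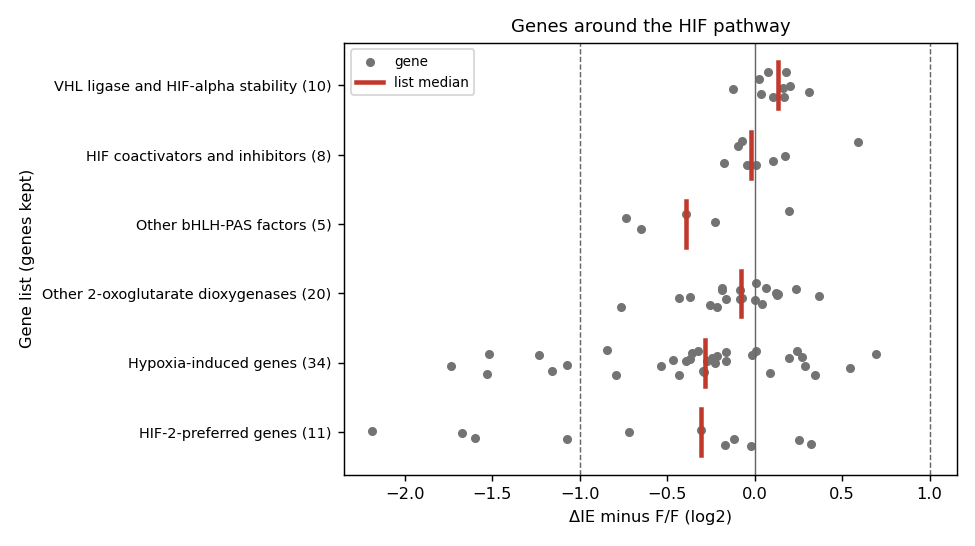
Difference, ΔIE minus F/F (log2), of each kept gene (grey) in the 6 lists around the HIF pathway, with the list median (red). Dashed lines mark 2-fold. By brightest probe set, no gene of the upper 4 lists reaches 2-fold. At or below the lower line lie 6 of 34 hypoxia-induced genes and 4 of 11 HIF-2-preferred genes, beside 5.30% of all genes kept.

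Markers of several cell types differed on the same arrays as Hif1a and Egln3. In bulk samples fewer cells of a type and less RNA per cell cannot be told apart. Of 10 neutrophil markers 8 were kept, and each of these was lower in ΔIE (median -1.53), 6 of them by 2-fold or more, beside a median of 0.02 and 5.30% over all genes kept. The 2 below the filter were lower as well. The summed linear level of the 10 was 27228 on the ΔIE array and 51859 on the F/F array, or 52.5%, and the granule enzyme genes Mpo and Elane were below the filter on both arrays. All 9 macrophage and monocyte markers matched were lower, with a median of -1.19 and a summed linear level of 4065 on the ΔIE array and 8793 on the F/F array, or 46.2%. B cell markers had a median of -1.81 (6 of 6 matched lower), fibroblast markers -0.85 (7 of 7), endothelial markers -0.51 (8 of 8) and squamous keratins -1.21 (7 of 7). Hox genes of the posterior body axis had a median of -1.49 over the 7 kept, and 8 of the 9 matched were lower. Of the markers kept, Itgam (macrophage), Cr2 and Pax5 (B cell), Tie1 (endothelium), Krt1 (squamous), Hoxa10, Hoxa13 and Hoxd11 reached the filter on the F/F array alone, so that their being lower was fixed by the filter. With the filter reached on both arrays, a setting chosen after seeing the data, the medians were -1.12 for macrophage markers (8 genes), -1.81 for B cell (4), -0.43 for endothelium (7), -1.28 for squamous (6) and -2.13 for posterior Hox (4), and without a filter the posterior Hox median was -1.44, with Hoxc10 at 0.34.

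Epithelial markers were slightly higher as a list. Of 11 markers 8 were above 0 and 3 below, beside 46.5% of all genes kept below 0. Their median was 0.26, and their summed linear level on the ΔIE array was 111% of that on the F/F array. Cdx2, at 1.02, was the only one at 2-fold, beside 1.15% of all genes kept that were higher. Smooth muscle markers had a median of -0.08 over 5 genes and adipocyte markers 0.67 over the 2 kept. The difference of Hif1a (-0.97) was smaller in size than the medians of neutrophil, macrophage, B cell, squamous and posterior Hox markers. It was larger in size than those of fibroblast and endothelial markers. With the filter reached on at least 1 array, the difference of Egln3 (-1.73) was larger in size than all these medians except that of B cell markers. The part of these cell types, and of position along the gut, in the values of the members and of the hypoxia-induced and HIF-2-preferred lists was not tested.

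**Figure D4:**
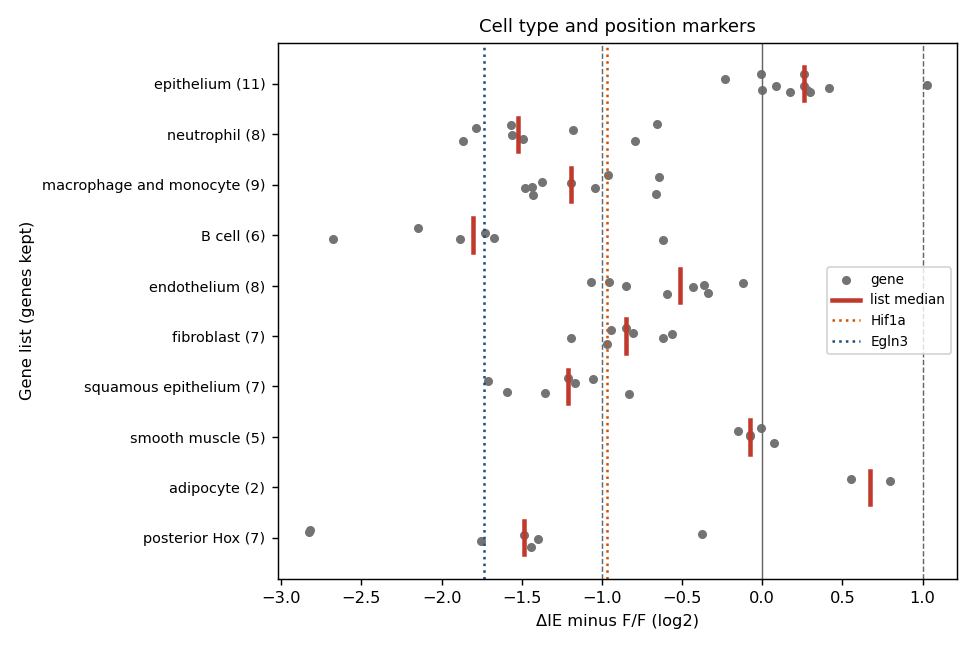
Difference, ΔIE minus F/F (log2), of each kept marker gene (grey) with the list median (red), and the values of Hif1a and Egln3 (dotted lines) for position. Immune, stromal, squamous and posterior Hox medians lie below 0, the epithelial median at 0.26 and the smooth muscle median at -0.08.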

How the data were processed

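Total RNA of colon mucosal scrapings was measured on 2 arrays, 1 per genotype, assigned from the genotype label. The deposited values are log2 expression, made by the authors with affy and RMA per the submitters' processing notes. The sources used here do not state versions, filters or which arrays were normalized together. RMA equalises the distributions of arrays, which hides a shift shared by most genes, and it compresses differences of dim probe sets. The number of arrays limits the precision.

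Genes were named from a platform annotation of 2016: 34958 of 45101 probe sets had 1 symbol, 932 several and 9211 none. Control probe sets (64) were set aside. A gene took its probe set of highest mean, and was kept where the higher value reached 6.11. No test was run. Every member is named, and of the lists the members at 2-fold or, where fewer than 3 reach it, the 3 of highest mean. Slc11a2, Slc40a1, Cybrd1, Hmox1, Cited4, Arntl2, Plod1, Plod2, Cdx2, Krt6a, Acta2 and the markers kept on 1 array were named after their values were seen. The members and all 16 lists were chosen with earlier results of these data known. Of 187 list entries 175 matched a symbol. Counting was tested on simulated data. Python 3.11.15, numpy 2.4.6, pandas 2.3.3, statsmodels 0.14.6 and matplotlib 3.10.9 were used. Alternatives changed the filter, fold, probe-set choice, centring and intensity trend (lowess, span 0.3).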

Additional observations from a re-analysis of the deposited data

How the results depend on the processing

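No paired analysis was possible because each genotype has 1 array. A difference counted as moved when it shifted by more than 0.41, the 95th percentile of the gap between the 2 brightest probe sets of 5110 genes, and a count where it changed by over 1.5 times. Of the 10 member genes, Arnt2 alone moved, to 0.15 with probe sets averaged. Hif1a crossed 2-fold at -1.15 without IDs ending in _s_at, _x_at or _a_at and at -1.01 with lowess, and no member gene or probe set at 2-fold changed sign. Median centring and lowess shifted member probe sets by at most 0.02 and 0.07. At 3-fold 2 member probe sets were lower, and at 1.5-fold 1 was higher, beside 1.16% and 4.03% of measured named probe sets. Of the lists, the hypoxia-induced count of lower genes was 3 with probe sets averaged and 1 at 3-fold. At 1.5-fold 1 hypoxia-induced gene and 1 coactivator or inhibitor were higher, and 2 bHLH-PAS genes and 1 dioxygenase were lower. The higher member probe set, of Arnt2, and the higher coactivator or inhibitor, Cited4, passed the filter on the ΔIE array alone. Their direction was fixed by the filter. Of all genes kept, 10.6% were lower and 4.37% higher at 1.5-fold, 1.49% lower at 3-fold, and 4.63% lower at 2-fold with probe sets averaged. The HIF-2-preferred median moved to -1.07 with the filter at the 75th percentile, which leaves fewer genes. That value is the one of Ankrd37, kept there through the F/F array alone, so its being lower was fixed by that filter. Shifts short of 0.41 took the HIF-2-preferred median to -0.72 with probe sets averaged, and the bHLH-PAS median to -0.12 without a filter, which adds dim genes. The cause of these moves and shifts was not tested. No replicate spread exists, so none of these alternatives measures variation between mice, and dim probe sets such as those of Hif3a and Arnt2 limit what can be said of these genes.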
